A study of Mus musculus with 4 samples.

Results

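A set of 10 transcription factor genes, grouped here as immediate-early factors, was followed in differentiating mouse muscle cells depleted of the histone demethylase LSD1. They are the Jun genes Jun, Junb and Jund, the Fos genes Fos, Fosb, Fosl1 and Fosl2, and Atf3, Egr1 and Myc. Every probe set whose annotation gave exactly 1 of these symbols was taken, which yielded 14 probe sets for 10 of the 18193 genes measured. The arrays held C2C12 cells, an immortalised mouse myoblast line that fuses into myotubes when serum is lowered, and RNA was collected 48 hours after the switch from 10% fetal bovine serum to 2% horse serum. The shLSD1 group (2 arrays) stably expressed a short hairpin RNA against LSD1, and the shControl group (2 arrays) stably expressed the control hairpin. Both groups were grown with 750 µg/mL hygromycin B and had 25 mM glucose throughout. The labels name 1 hairpin against LSD1 and no independent stable lines, so effects of the hairpin, of the selected population and of LSD1 loss cannot be told apart. Whether the replicates are separate cultures is not stated, and the p-values therefore reflect array-to-array spread that could be technical.

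Immediate-early genes are switched on within minutes of a growth or stress signal without new protein synthesis. Mostly, MAP kinases act on serum response factor, ternary complex factors and CREB-type proteins at the promoters of such genes. The name of the set does not mean that each member is induced in this way. Jun and Fos proteins pair through leucine zippers to form AP-1, and Atf3 joins the same dimer network. Egr1 is a zinc finger activator and Myc a helix-loop-helix factor that works with Max in growth and ribosome production. In myoblasts, Jun and Fos are known as opponents of MyoD-driven differentiation, and JunB has been tied to the upkeep of muscle mass.

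The promoters of Atf3, Jun and Junb are shown because these are the called members other than Fosl1 with the largest changes among those whose promoter sequence was at hand. Each is the 250 bases before the RefSeq gene start on the sense strand of GRCm38.p6, at chr1:191183334-191183583 for Atf3, chr4:95052223-95052472 for Jun and chr8:84978749-84978998 for Junb, all on the minus strand. Capitals mark letters of the CRE (TGACGTCA), its core TGACGT, the AP-1 element TGANTCA and the variant TGACATCA, searched on both strands. The CRE contains the core, so these matches overlap by construction.
Atf3: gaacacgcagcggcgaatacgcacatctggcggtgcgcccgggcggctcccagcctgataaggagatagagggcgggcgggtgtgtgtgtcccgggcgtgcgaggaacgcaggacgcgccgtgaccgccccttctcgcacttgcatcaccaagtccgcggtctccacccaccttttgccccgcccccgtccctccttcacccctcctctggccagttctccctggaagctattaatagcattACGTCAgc
Jun: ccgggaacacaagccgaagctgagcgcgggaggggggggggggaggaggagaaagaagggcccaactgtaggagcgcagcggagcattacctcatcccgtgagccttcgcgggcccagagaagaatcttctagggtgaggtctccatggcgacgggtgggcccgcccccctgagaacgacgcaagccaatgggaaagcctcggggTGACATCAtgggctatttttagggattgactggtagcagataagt
Junb: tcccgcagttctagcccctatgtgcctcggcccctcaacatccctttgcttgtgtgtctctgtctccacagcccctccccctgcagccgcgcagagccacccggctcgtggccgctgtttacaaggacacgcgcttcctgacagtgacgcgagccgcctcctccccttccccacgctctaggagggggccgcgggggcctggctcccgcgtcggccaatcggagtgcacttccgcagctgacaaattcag
The Atf3 window held the CRE core, starting 8 bases before the gene start, and 5 GC boxes (GGGCGG). GC boxes also occurred in the windows of Jun, Fosl2, Fosb and Fos. The Jun window held TGACATCA, starting 45 bases before the gene start, and the Junb window held none of the 4 marked motifs. Of 32851 promoter windows of the same length, 6.47% held the core, 2.93% held TGACATCA, 6.75% held TGANTCA, 1.55% held the full CRE and 32.7% held a GC box. The search also covered the CArG box (A and T letters between CC and GG), the E-box CACGTG and TATAAA. These were held by 1.47%, 6.02% and 12.4% of the windows. Among the members searched, only the Fos window held any of them, namely TATAAA. The Fos window also held a CRE core, starting 66 bases before the gene start, and the sequences of 7 of the 10 members were searched. A match describes letters in the window and is not a measured site.

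The knockdown was visible in Kdm1a, the gene of LSD1, which had signals of 922 and 1034 on shLSD1 arrays, against 4603 and 4588 on shControl arrays. Its log2 fold change was -2.23 (SE 0.07, n = 2 each, limma adjusted p = 2.89e-05). Median signals over all probe sets ran between 67.3 and 69.7 on the 4 arrays. Skeletal muscle identity was plain in both groups, with 14 of 15 muscle markers above the signal filter and Myf6 below it. Of those 14, 10 fell and 1, Myf5, rose, or 78.6% called beside 15.8% of all genes tested. The summed signal of the 15 was 131925 to 144530 on shLSD1 arrays and 182957 to 184351 on shControl arrays. Of 18 measured markers of blood, endothelial, epithelial, fat and neural cells, 15 lay below the filter, including Ptprc, Pecam1, Epcam, Adipoq and Snap25, and their summed signal was 649 to 840 on shLSD1 arrays and 641 to 642 on shControl arrays. Of the 3 tested, Cdh1 rose by 1.38, having passed the filter only through its shLSD1 signals (1.28, adjusted p = 0.0619, without shControl replicate 2), while Krt8 measured 0.53 and Pparg -0.39 without passing the test. The part of these markers in the results below was not tested.

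AP-1 genes changed in opposite directions in LSD1-depleted cells, while Egr1 and Myc did not pass the test. Fosl1, Atf3, Jun and Fosl2 rose, by 0.24 to 0.84 on the log2 scale, and Junb fell by 0.67. Fos, Jund, Egr1 and Myc were tested and not called, and Fosb was too dim to test. In all, 4 of 9 tested members rose, beside 8.75% of the 10879 genes tested, and 1 of 9 fell, beside 7.09%. Over all genes tested, 15.8% were called in either direction. The members were chosen with earlier results of these data known, so these shares are no test of the set. The median log2 fold change was 0.10 over the 9 members and 0.0036 over all genes tested. The groups did not overlap for 8 of the 9, with 5 members higher and 3 lower in shLSD1, beside 60.1% of all tested genes (30.7% higher and 29.4% lower). In bulk RNA, fewer cells that express a gene and less of its RNA per cell cannot be told apart. Exact permutation of 2 against 2 arrays cannot give a two-sided p below 0.333, so calls rest on limma, fitted across all tested genes and called at a Benjamini-Hochberg adjusted p of 0.05 or less.

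**Figure D1:**
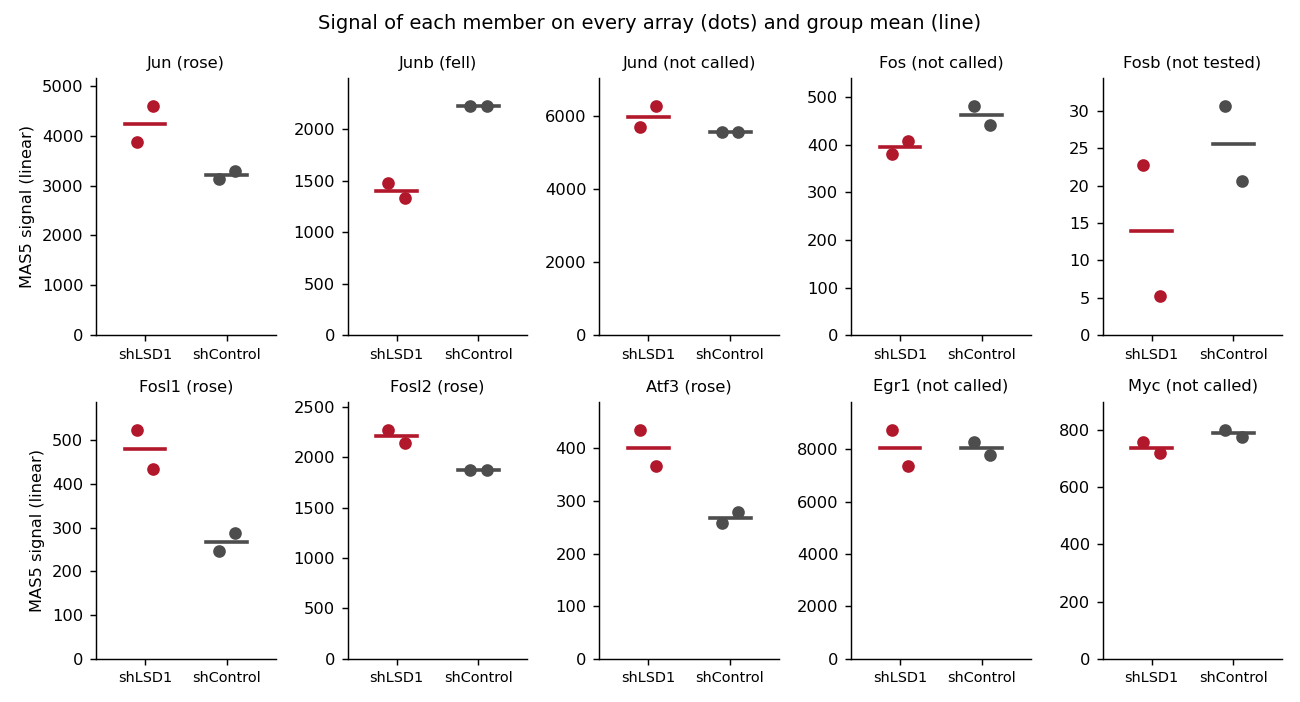
MAS5 signal (linear axis from 0, own scale per gene) of each member on the shLSD1 arrays (red) and the shControl arrays (grey), with dots for single arrays and lines for group means of 2 arrays. Jun, Fosl1, Fosl2, Atf3 and Jund sit higher on both shLSD1 arrays, Junb, Fos and Myc lower, and the groups overlap for Egr1 and for the dim Fosb.

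Among the Jun genes, Jun rose and Junb fell. Jun encodes c-Jun, the main transactivating partner in AP-1, and its representative probe set had signals of 3873 and 4598 in shLSD1 cells, against 3135 and 3291 in shControl cells. Both shLSD1 arrays lay above both shControl arrays, and the gap between the shLSD1 arrays (0.25 on the log2 scale) was wider than that between the shControl arrays (0.07). The log2 fold change was 0.39 (SE 0.08, limma adjusted p = 0.0173), or 1.31-fold (95% interval of the log2 fold change 0.20 to 0.59). A second Jun probe set had 2310 and 2559 in shLSD1 cells, against 2038 and 1870 in shControl cells, and rose by 0.32 (SE 0.07, limma adjusted p = 0.0304 over all 22518 probe sets that passed the filter). The call of Jun was lost without shControl replicate 1 (0.36, adjusted p = 0.139), without shControl replicate 2 (0.43, adjusted p = 0.0889) and without the intensity trend in the variance model (adjusted p = 0.120).

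Junb encodes JunB, a weaker activator that can oppose c-Jun at shared sites. Its signal was 1475 and 1329 in shLSD1 cells, against 2228 and 2223 in shControl cells. The groups were well apart and the shControl arrays nearly equal. Its log2 fold change was -0.67 (SE 0.07, limma adjusted p = 0.00112), leaving 62.9% of the control signal (95% interval of the fold change 0.56 to 0.70). This was the only member call kept under all 13 alternatives of the gene-level fit, with values from -0.74 to -0.59. Jund encodes JunD, the Jun protein of resting cells, and measured 5681 and 6265 in shLSD1 cells, against 5555 and 5542 in shControl cells. Its log2 fold change of 0.10 (95% interval -0.03 to 0.24, limma adjusted p = 0.267) did not pass. Without shLSD1 replicate 1 it was called (0.18, adjusted p = 0.0274). The other Jund probe set was below the filter, at 15.4 and 36.9 in shLSD1 cells and 49.5 and 33.2 in shControl cells, and averaging both probe sets turned the sign (-0.33, adjusted p = 0.455).

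The balance of Jun against Junb can be read within each array, where any scaling factor cancels. Relative to the shControl mean, log2 of the Jun to Junb signal ratio was 0.86 and 1.26 on shLSD1 arrays, against -0.04 and 0.04 on shControl arrays. The ratio was 2.09-fold higher in shLSD1 cells on average (1.06 ± 0.28 against 0 ± 0.05 on the log2 scale, SD, n = 2 each). It shows unequal change of the pair and had no test of its own.

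Among the Fos genes, the Fos-related antigen Fosl1 rose, Fos itself did not pass and Fosb was near background. Fosl1 encodes Fra-1, an AP-1 partner without the strong activation domain of Fos that persists in proliferating and migrating cells. Its representative probe set had 524 and 435 in shLSD1 cells, against 246 and 288 in shControl cells. No array of one group reached the range of the other, although each group spread by over 0.2 on the log2 scale (0.27 in shLSD1, 0.22 in shControl). The log2 fold change was 0.84 (SE 0.14, limma adjusted p = 0.00782), or 1.79-fold with a 95% interval of 1.42 to 2.26, the largest absolute change among the members tested. Its second probe set gave 188 and 143 in shLSD1 cells and 95.9 and 100.1 in shControl cells, a difference of 0.75 (SE 0.22) that missed the threshold over all probe sets (limma adjusted p = 0.0681). The call of Fosl1 was lost without shControl replicate 1 (0.73, adjusted p = 0.0664) and without the intensity trend (adjusted p = 0.0510).

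Fosl2 encodes Fra-2, the related partner, and its brighter probe set measured 2275 and 2146 in shLSD1 cells, against 1876 and 1874 in shControl cells. The arrays of the groups did not overlap, and the rise was small at 0.24 (SE 0.06, limma adjusted p = 0.0366). Its second probe set showed no such difference, with 170 and 141 in shLSD1 cells and 149.5 and 176 in shControl cells (-0.07, SE 0.20, limma adjusted p = 0.872). With the mean of both, Fosl2 measured 0.085 (adjusted p = 0.665). The call was also lost without shLSD1 replicate 1 (0.19, adjusted p = 0.0766), without shControl replicate 1 (0.24, adjusted p = 0.194), without shControl replicate 2 (0.24, adjusted p = 0.187), with median centring, with no filter and without the intensity trend.

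Fos, the prototype of the class, had 381 and 408 in shLSD1 cells, against 482 and 442 in shControl cells. Both shLSD1 arrays were lower, yet the log2 fold change of -0.23 (95% interval -0.48 to 0.03, limma adjusted p = 0.214) did not pass. Fosb, whose splice form ΔFosB accumulates under lasting stimulation, was listed at 22.8 and 5.18 in shLSD1 cells and at 30.7 and 20.6 in shControl cells, all under the filter signal of 65.4. Within arrays, log2 of the Fosl1 to Fos signal ratio, set to a shControl mean of 0, was 1.25 and 0.88 in shLSD1 cells, against -0.17 and 0.17 in shControl cells, so the ratio was 2.10-fold higher in shLSD1 cells.

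Atf3, a stress-induced repressor of the ATF family that dimerises with Jun proteins, also rose. Its signal was 436 and 367 in shLSD1 cells, against 259 and 279 in shControl cells, with no overlap. The log2 fold change was 0.58 (SE 0.14, limma adjusted p = 0.0269), or 1.49-fold with a 95% interval of 1.20 to 1.86. Its call was lost without shLSD1 replicate 1 (0.45, adjusted p = 0.0846), without shControl replicate 1 (0.52, adjusted p = 0.162), without shControl replicate 2 (0.63, adjusted p = 0.105), with no filter and without the intensity trend. Of the promoters searched, that of Atf3 held a CRE core, that of Jun held TGACATCA, and both genes rose. The Fos promoter held the core and its gene did not pass the test. Those of Fosl2, Junb, Jund and Fosb held none of the 4 marked motifs. Of these genes, Fosl2 rose, Junb fell, Jund did not pass and Fosb was not tested. The promoters of Fosl1, Egr1 and Myc were not searched, and a link between motifs and changes was not tested.

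Egr1 and Myc showed no called difference. Egr1 was bright, with 8756 and 7367 in shLSD1 cells, against 8290 and 7788 in shControl cells. The shLSD1 arrays lay on either side of the shControl arrays, and the log2 fold change was -6.2e-04 (95% interval -0.19 to 0.19, limma adjusted p = 0.996), or -12.2% to 13.8% as a percent change. Myc had 758 and 721 in shLSD1 cells, against 802 and 777 in shControl cells. Its shLSD1 arrays were slightly lower, at -0.09 (95% interval -0.29 to 0.10, limma adjusted p = 0.485). Neither interval shows that the gene was unaffected.

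**Figure D2:**
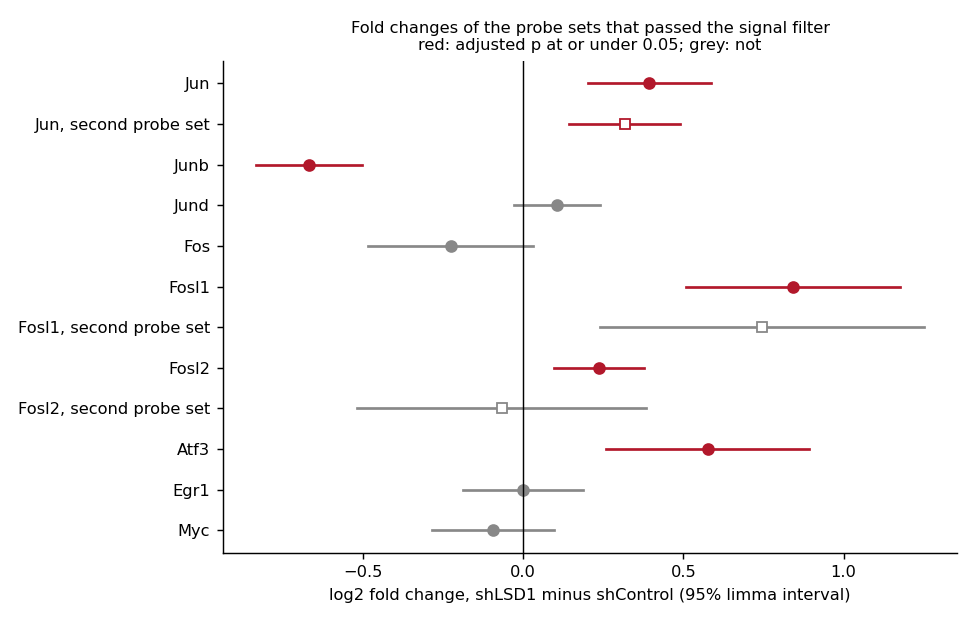
Log2 fold changes (shLSD1 minus shControl, dots or squares) with 95% limma intervals (lines) for the 12 member probe sets above the filter, where filled dots are representative and open squares are second probe sets, and red marks an adjusted p at or under 0.05. Junb lies at -0.67 and Fosl1 at 0.84, while the intervals of Jund, Fos, Egr1, Myc and the second Fosl2 probe set cross 0.

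Counted by probe set, 5 of the 12 that passed the filter rose, beside 6.20% of all probe sets tested, and 1 fell, beside 5.06%, with 11.3% called in either direction. Of the 4 members with a pair of probe sets, Jun and Fosl1 had both in the same direction, and Fosl2 and Jund had them with opposite signs. The second Fosl2 probe set measured only -0.07 (SE 0.20), and that of Jund lay below the filter. In both of these second probe sets the groups overlapped. The count of member calls fell most when a shControl array was left out or the variance model was changed. Estimates kept their direction without shControl replicate 1 or 2, at 0.36 or 0.43 for Jun and 0.52 or 0.63 for Atf3. Fosl1 measured 0.73 or 0.96 and Fosl2 0.24 in both. Without shControl replicate 1 no member rose, without shControl replicate 2 only Fosl1 did, and without the intensity trend none did, while Junb fell in each of these.

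**Figure D3:**
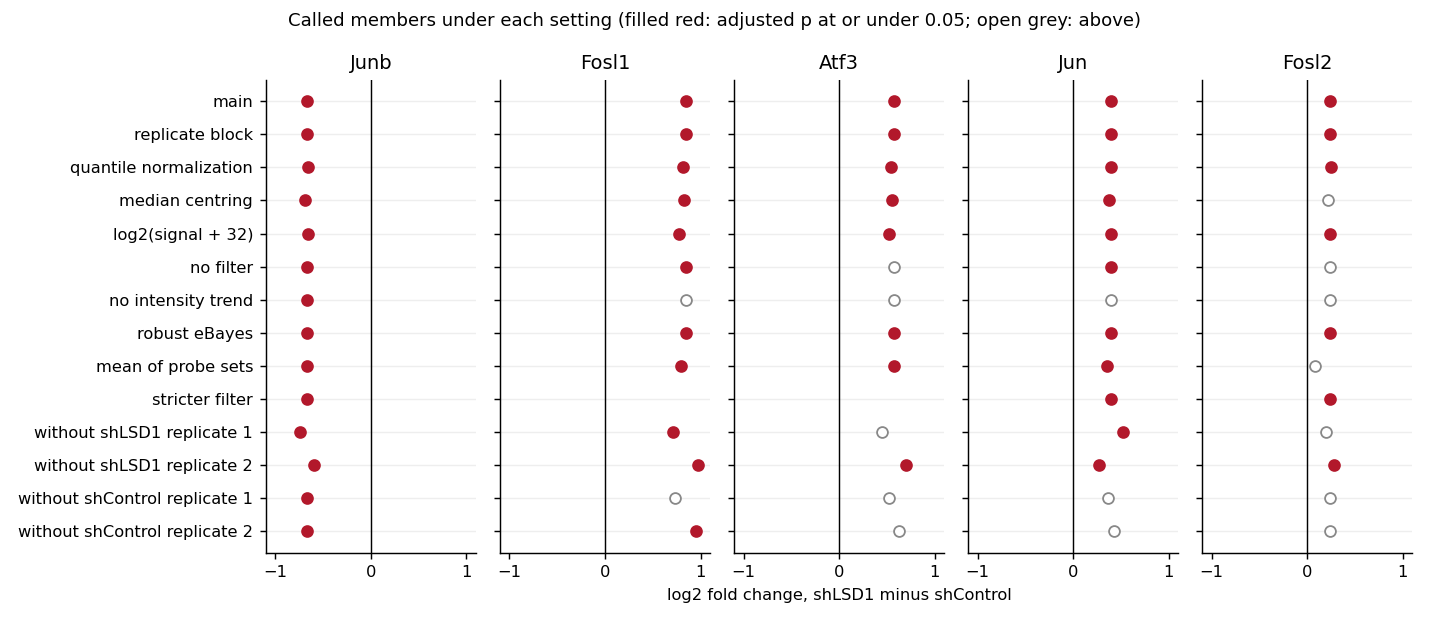
Log2 fold change (shLSD1 minus shControl, horizontal axis) of the 5 called members under the main setting and each alternative (rows), with filled red dots for an adjusted p at or under 0.05 and open grey dots above it; Fosl1 and Atf3 have no value under the stricter filter. Junb is filled in every row, and no dot of these members changes side.

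The genes around the members were taken from 8 lists, which share a few genes. The lists were chosen with earlier results of these data known, so the shares called in them are no test of the lists. Of 153 genes tested in them, each counted once, 17 rose and 21 fell, or 24.8% called beside 15.8% of all genes, with a median log2 fold change of -0.03. Without shControl replicate 1 the count called was 12 and without shControl replicate 2 it was 15, against 38 with all arrays.

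Among other bZIP factors that can pair with AP-1 proteins or compete for their sites, Crem, Nfe2l2 and Maff rose and Atf4 fell. These were 4 of 15 tested, or 26.7% called beside 15.8% of all genes tested, and the median was 0.04. Crem, which encodes CREB-family activators and repressors, had 326 and 303 in shLSD1 cells, against 186 and 175 in shControl cells (0.80, SE 0.14, limma adjusted p = 0.00942). With the mean of its probe sets it measured 0.34 (adjusted p = 0.495), and its call was lost without shControl replicate 1 (0.84, adjusted p = 0.0553) and without shControl replicate 2 (0.75, adjusted p = 0.0735). Nfe2l2, the gene of NRF2, rose by 0.29 (limma adjusted p = 0.00887) and measured 0.15 (adjusted p = 0.826) with the mean of its probe sets. Its call was lost without shControl replicate 1 (0.32, adjusted p = 0.0644) and replicate 2 (0.26, adjusted p = 0.112). The small Maf gene Maff rose by 0.51 (limma adjusted p = 0.0485), a call kept in 5 of 13 alternatives and lost at 0.32 (adjusted p = 0.256) without shControl replicate 1 and at 0.43 (adjusted p = 0.111) without shLSD1 replicate 1. Atf4, the factor of the integrated stress response, fell by 0.21 (limma adjusted p = 0.0256), but the mean of its probe sets was 0.05 (adjusted p = 0.825). It did not pass without shControl replicate 1 (-0.26, adjusted p = 0.111) and replicate 2 (-0.16, adjusted p = 0.269).

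Other immediate-early genes were called in both directions. Of 31 tested, 7 fell and 4 rose, or 35.5% called beside 15.8% of all genes tested, with a median of -0.11. Klf4, a zinc finger factor, had 5966 and 6276 in shLSD1 cells, against 4223 and 4293 in shControl cells, and so that it rose by 0.52 (limma adjusted p = 7.99e-04), which held in all 13 alternatives. Dusp1, the phosphatase that switches MAP kinases off, had 4921 and 5768 in shLSD1 cells, against 3324 and 3475 in shControl cells (0.65, limma adjusted p = 0.00177, and 0.0502 without the intensity trend). The secreted matrix factor gene Ccn1 fell by 0.54 (limma adjusted p = 0.00186) and measured -0.27 (adjusted p = 0.108) with the mean of its probe sets. Zfp36l1, which encodes an mRNA decay factor, fell by 0.41 (limma adjusted p = 0.00300), lost without shControl replicate 1 (-0.37, adjusted p = 0.0520) and without the intensity trend.

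Egr3 and Egr2, close relatives of Egr1, fell. Egr3 had 1153 and 771 in shLSD1 cells, against 2102 and 2087 in shControl cells, and fell by 1.15 (SE 0.16, limma adjusted p = 0.00355). The mean of its probe sets was -0.44 (adjusted p = 0.218), and its call was also lost without the intensity trend (adjusted p = 0.0627). Egr2, named after its values were seen, had 264 and 211 in shLSD1 cells, against 419 and 454 in shControl cells, and fell by 0.89 (SE 0.15, limma adjusted p = 0.00714). That call was lost without shControl replicate 1 (-0.95, adjusted p = 0.0521) and without shControl replicate 2 (-0.83, adjusted p = 0.0774). Within arrays, log2 of the Egr3 to Egr1 ratio, set to a shControl mean of 0, was -0.98 and -1.32 in shLSD1 cells, against -0.04 and 0.04 in shControl cells. For Egr2 to Egr1 it was -0.85 and -0.92 in shLSD1 cells, against -0.10 and 0.10 in shControl cells. These ratios show unequal change among the Egr genes and had no separate test.

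The list of Egr1 cofactors and textbook targets holds Egr2 and Egr3. In it 6 of 13 tested genes fell and 1 rose, or 53.8% called beside 15.8% of all genes tested, with a median of -0.34. Thbs1, the gene of the matrix protein thrombospondin 1, had 5762 and 6923 in shLSD1 cells, against 11121 and 11799 in shControl cells, and fell by 0.86 (SE 0.08, limma adjusted p = 8.27e-04) in every alternative. The growth factor gene Igf2 had 989 and 1367 in shLSD1 cells, against 2557 and 2296 in shControl cells (-1.06, SE 0.14, limma adjusted p = 0.00273, and 0.0569 without the intensity trend). Fibronectin (Fn1) fell by 0.27 (limma adjusted p = 0.00343), a call lost without shControl replicate 1 (-0.25, adjusted p = 0.123), without shControl replicate 2 (-0.28, adjusted p = 0.0958), without the intensity trend and when its probe sets were averaged. Of the Egr corepressor genes, Nab1 rose by 0.24 (limma adjusted p = 0.0368) and Nab2, itself induced by Egr1, measured -0.09 (limma adjusted p = 0.681).

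Textbook AP-1 targets were also divided. Of 15 tested, 5 rose and 3 fell, or 53.3% called beside 15.8% of all genes tested, with a median of 0.08. A further 4 measured genes lay below the filter, the collagenase and stromelysin genes Mmp13, Mmp3 and Mmp9 and the cytokine gene Il6. Plaur, the urokinase receptor gene, had 916 and 1076 in shLSD1 cells, against 519 and 426 in shControl cells, which is a rise of 1.08 (SE 0.13, limma adjusted p = 0.00162). The cyclin D1 gene (Ccnd1), which drives entry into the cell cycle, had 3735 and 3237 in shLSD1 cells, against 1976 and 1966 in shControl cells (0.82, SE 0.08, limma adjusted p = 6.99e-04). Hbegf, the gene of a growth factor that activates the EGF receptor, had 508 and 506 in shLSD1 cells, against 816 and 843 in shControl cells, and fell by 0.71 (SE 0.09, limma adjusted p = 0.00179). The calls of Plaur, Ccnd1 and Hbegf were kept in all 13 alternatives. Ezr, which links membrane and actin, rose by 0.77 (limma adjusted p = 0.00172), but the mean of its probe sets was 0.036 (adjusted p = 0.972).

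Most tested genes of the signalling chain above the members did not pass, which also holds for all genes tested. Of 28 genes listed for MAP kinases, serum response factor and ternary complex factors, only 20 were measured, and all 20 were tested. Among them 1 rose and 1 fell, with a median of -0.0040. That is 10% called, beside 15.8% of all genes tested. Map2k1, the gene of the ERK kinase MEK1, had 2471 and 2264 in shLSD1 cells, against 3217 and 3064 in shControl cells (-0.41, SE 0.06, limma adjusted p = 0.00567). Its call was lost without shControl replicate 1 (-0.37, adjusted p = 0.0718) and without the intensity trend. Mrtfb, a coactivator of serum response factor, rose by 0.32 (limma adjusted p = 0.0313), lost in 6 of 13 alternatives, among them those without shControl replicate 1 (0.33, adjusted p = 0.146), shControl replicate 2 (0.30, adjusted p = 0.173) or shLSD1 replicate 2 (0.23, adjusted p = 0.0643). Serum response factor itself (Srf) measured -0.11 (limma adjusted p = 0.402). Of 16 tested genes that feed back on ERK and related kinases, 2 rose and 0 fell, with a median of 0.18. That is 12.5% called, beside the same 15.8%. Dusp10, a phosphatase for stress kinases, and Errfi1, an inhibitor of the EGF receptor, rose by 0.35 and 0.34 (limma adjusted p = 0.0223 and 0.0365). The call of Dusp10 was lost without shControl replicate 1 (0.30, adjusted p = 0.166) and replicate 2 (0.39, adjusted p = 0.0925), and also without the intensity trend and when its probe sets were averaged. That of Errfi1 was lost in 6 of 13 alternatives, namely median centring, no filter, no intensity trend, averaged probe sets and those without shControl replicate 1 (0.38, adjusted p = 0.133) or replicate 2 (0.30, adjusted p = 0.213). Without shLSD1 replicate 1 Errfi1 measured 0.21 (adjusted p = 0.0447). Dusp6, the ERK phosphatase gene that is itself induced by ERK, had 2000 and 1720 in shLSD1 cells, against 2002 and 1989 in shControl cells (-0.11, limma adjusted p = 0.422).

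Around Myc, Odc1, Srm, Nhp2 and Usp28 fell and Ccnd2 rose. Of 18 tested genes of the Myc-Max network, 0 rose and 1 fell, with a median of -0.03 and 5.56% called, beside 15.8% of all genes tested. The gene that fell was Usp28, a deubiquitinase that stabilises Myc, with 595 and 586 in shLSD1 cells, against 788 and 818 in shControl cells (-0.44, SE 0.08, limma adjusted p = 0.0116). Its call was lost without shControl replicate 1 (-0.47, adjusted p = 0.0769) and replicate 2 (-0.42, adjusted p = 0.106). Max, the obligate partner, measured -0.17 (limma adjusted p = 0.241). Of 29 tested textbook Myc targets, 4 fell and 1 rose, with a median of -0.08 and 17.2% called, near the share over all genes. Odc1, the rate-limiting enzyme gene of polyamine synthesis, had 4124 and 4413 in shLSD1 cells, against 6088 and 6004 in shControl cells, and fell by 0.50 (SE 0.05, limma adjusted p = 0.00109) in every alternative. Spermidine synthase (Srm), a later step of the same pathway, fell by 0.45 (limma adjusted p = 0.0103), lost without shControl replicate 1 (-0.44, adjusted p = 0.0887), without shControl replicate 2 (-0.46, adjusted p = 0.0793) and without the intensity trend. Cyclin D2 (Ccnd2) rose by 0.69 (limma adjusted p = 0.00832), lost without shControl replicate 1 (0.69, adjusted p = 0.0662), without shControl replicate 2 (0.70, adjusted p = 0.0618) and without the intensity trend. Nhp2, a nucleolar gene of the list, fell by 0.22 (limma adjusted p = 0.0293), and its call was lost in 5 of 13 alternatives. The nucleolar genes Ncl, Fbl and Nop56 measured -0.03, -0.06 and -0.05, none past the threshold.

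**Figure D4:**
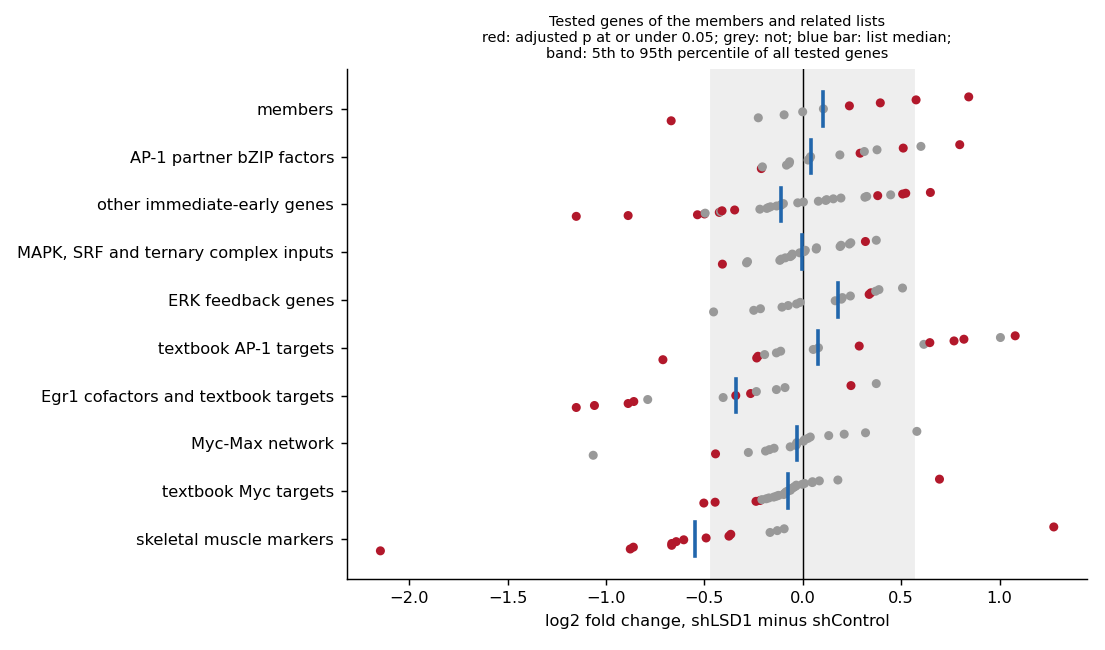
Log2 fold changes (shLSD1 minus shControl, horizontal axis) of tested genes in each list (rows), red for an adjusted p at or under 0.05 and grey above it, with blue bars for list medians and a band from the 5th to the 95th percentile of all tested genes (-0.47 to 0.57). The members spread on both sides of 0, the list of Egr1 cofactors and targets has a median of -0.34 and the muscle markers one of -0.55, and markers of other cell types are not drawn.

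The genes whose deviations from their own mean over the 4 arrays lay closest to Fosl1 were Aig1, Acap1 and Trpm6, at Euclidean distances of 0.087, 0.093 and 0.099 on the log2 scale. Aig1 had 988 and 850 in shLSD1 cells, against 464 and 516 in shControl cells, and rose by 0.91 (limma adjusted p = 0.00177). Acap1 had 136 and 108 in shLSD1 cells, against 58.4 and 72.7 in shControl cells (0.89, limma adjusted p = 0.0645), and Trpm6 had 118 and 99.2 in shLSD1 cells, against 53.9 and 69.2 in shControl cells (0.82, limma adjusted p = 0.0912). Acap1 and Trpm6 did not pass the test, and their shControl means lay below the filter, which they passed through their shLSD1 signals. The closest to Junb were Arhgap24, Ccn4 and Zbed6, at distances of 0.021, 0.036 and 0.042, and Ccn4, the gene of a CCN matrix protein, had 4095 and 3814 in shLSD1 cells, against 6351 and 6301 in shControl cells. These genes were picked for closeness to a called member, so the direction and size of their changes follow from the choice. With 4 arrays such likeness is common: 79 genes lay within 0.25 of Fosl1 and 201 within 0.25 of Junb.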

How the data were processed

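Per the submitters' processing notes, the values deposited by the authors came from MAS5 and Affymetrix Expression Console, with versions not given in the sources used here, and are linear intensities, 1 for each probe set. The labels' protocols give 250 ng of total RNA as the input. Each array had a mean of 500.003 once 2% of values were trimmed from either end, as global MAS5 scaling leaves it, and MAS5 signals near background are noisy. The number of arrays, 2 per group, limits the precision.

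Values were floored at 1 and moved to the log2 scale. Of 45101 probe sets, 64 were controls, 34945 had exactly 1 gene symbol, 932 several and 9160 none, and 0 symbols needed an update through the gene table. Each gene was represented by its brightest single-symbol probe set, avoiding those with the _x_at suffix where another existed. The 10879 of 18193 genes whose mean log2 signal exceeded the probe set median, 6.03, entered a two-sided limma 3.58.1 test under R 4.3.3. It used lmFit and eBayes with an intensity trend, had 7.54 total degrees of freedom, and was adjusted by Benjamini-Hochberg at 0.05. Second probe sets were tested in the same way over all 22518 probe sets that passed. On simulated data for 10879 genes the method recovered 30 of 67 genes changed by 0.5, 53 of 67 changed by 1 and 61 of 66 changed by 2 on the log2 scale, with 9 false calls. The simulation drew its variances from the fitted variance model and its errors independently. Its counts therefore describe the method where that model holds, which they cannot check for these arrays.

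The members and lists were chosen with earlier results of these data known. The genes named are the members, Kdm1a, the markers, up to 4 genes per list with the smallest adjusted p, list genes with a role close to a member's, and the 3 genes most like each of the 2 members with the largest changes. Of 218 list genes, 200 were measured, of which 170 entered the test. Alternatives left out single arrays, added a replicate block, changed the scaling (median centring or quantile normalization), used log2(signal + 32), dropped the filter or raised it to log2 8.91, removed the intensity trend, made eBayes robust, or averaged the probe sets of each gene. Egr2 was named after its values were seen. Figures were drawn with matplotlib 3.10.9, and promoter sequences are from RefSeq, GRCm38.p6.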

Additional observations from a re-analysis of the deposited data

How the results depend on the processing

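Median centring, quantile normalization, log2(signal + 32) and robust variance kept the direction of every tested member and at most 1 call was lost (Fosl2 with median centring). With the replicate number as a block, 2220 genes were called against 1723, and 4 members rose and 1 fell as before. Same-numbered arrays did not deviate together over genes as a whole (correlation 0.0029). Whether they share more than a number is not stated. With each array left out in turn, genes called ranged from 580 to 2192, members that rose from 0 to 4, member probe sets called from 1 to 6 and list genes called from 12 to 49. Without the intensity trend 637 genes were called, 0 members rose, 0 member probe sets and 11 list genes were called, although Junb fell in the gene-level fit. When the probe sets of each gene were averaged, 901 genes and 19 list genes were called. With no filter 2 members rose and 2 member probe sets were called, and with the stricter filter, under which 6 members were tested, 2 rose. With no filter Fosb measured -1.21 (adjusted p = 0.521). The sign turned for Jund with the mean of probe sets (-0.33), for Egr1 without shLSD1 replicate 2 (0.12) and without shControl replicate 1 (0.044), in a leave-one-out range of -0.13 to 0.12, and for Atf4 with the mean of probe sets (0.053). Leaving out a shControl array gave 580 or 582 genes called, and leaving out a shLSD1 array gave 1915 or 2192. Each fit with an array left out took its residual spread only from the 2 arrays of the group left whole. The cause of the differing counts was not tested. Dim probe sets limit what can be said of Fosb and of the second probe set of Jund.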
